A study of Mus musculus with 94 samples.

Results

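The genes here mostly encode nuclear subunits of respiratory complex III, complex IV and ATP synthase, the last 3 multi-protein machines of mitochondrial oxidative phosphorylation. They were chosen by name: every symbol in the count tables beginning with Uqcr (complex III), with Cox followed by a digit of 4 to 8 (complex IV) or with Atp5 (ATP synthase) that averaged at least 1 CPM (counts per 1e6 counted) over the 47 libraries of a fat depot, leaving out Cox7a1 and Cox8b. Of 20411 symbols in the series, 43 matched the names, and 38 passed in epididymal white fat (eWAT) and 39 in inguinal white fat (iWAT). Complex III has 8 members in each depot, ATP synthase has 17 in each, and complex IV has 13 in eWAT and 14 in iWAT. The 17 count Atp5s and Atp5sl, whose products are not structural subunits of the enzyme. Complex IV counts Cox7a2l, known for a role in supercomplexes. The extra iWAT member is Cox6a2, the striated muscle isoform of subunit 6a, which averaged 0.32 CPM in eWAT and is described apart from the other members. Cox7b2 and Cox8c were below 1 CPM in both depots. The subunits of these complexes that the mitochondrial genome encodes were not analysed here.

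RNA of both depots was sequenced from the same 47 male C57BL/6JBomTac mice, giving 94 libraries. Obese mice were fed a high-fat diet (D12492) for 18 weeks and were 28 weeks old (n = 5). Regression mice had the same 18 weeks of high-fat diet and were then moved to a low-fat diet (D12450J) for 2, 6 or 12 weeks, reaching ages of 30, 34 and 40 weeks (n = 6 each). Each of these 4 groups had its own age-matched lean controls that ate the low-fat diet throughout (n = 6 each). Each library is bulk tissue from 1 mouse, so fewer cells of a type and less RNA per cell cannot be told apart. Mice were caged in groups, and the cage of each mouse is not known here.

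Complex III takes electrons from ubiquinol and passes them to cytochrome c, complex IV passes them from cytochrome c to oxygen, and the proton gradient that both help to build drives ATP synthase. In white fat the same machinery supports fatty acid synthesis, re-esterification and adipocyte maintenance. Nuclear subunit genes of the chain are textbook targets of the factors NRF1, the ETS family member GABP, the oestrogen-related receptors and YY1, with PGC-1 proteins as coactivators.

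A promoter window from RefSeq (build GRCm38.p6, 300 bases, from 250 before to 50 after the start of the gene) was given for 31 of the 39 members. The letters GCATGCGC, an NRF1 motif, stood on either strand in 6 of these 31 windows (19.4%), against 2.71% of all 32851 windows. CCGGAAG, an ETS motif, stood in 9 (29%, against 8.86% of all windows), AAGGTCA, a core motif of oestrogen-related receptors, in 4 (12.9%, against 4.72%), and AAGATGGC, a YY1 motif, in 3 (9.68%, against 2.75%). 16 of the 31 windows held none of these. Where GCGCATGCGC occurs, it is read as 2 overlapping NRF1 matches, and the other motifs share no letters with them. 3 windows are shown, because 2 of these genes took different courses after the diet change and the other had the highest level. Atp5k (chr5:108434350-108434649, minus strand) encodes subunit e of ATP synthase and had the deepest fall of all members in obese eWAT, with no difference called at 2 weeks. Atp5l (chr9:44920693-44920992, minus strand) encodes the neighbouring subunit g and was called lower at 2, 6 and 12 weeks in eWAT. Cox8a (chr19:7217567-7217866, minus strand) encodes the ubiquitous isoform of subunit 8 of complex IV and had the highest level per length in both depots. Each is written on the gene's strand, 5′ to 3′, with the matches to the 4 motifs in capitals.
Atp5k: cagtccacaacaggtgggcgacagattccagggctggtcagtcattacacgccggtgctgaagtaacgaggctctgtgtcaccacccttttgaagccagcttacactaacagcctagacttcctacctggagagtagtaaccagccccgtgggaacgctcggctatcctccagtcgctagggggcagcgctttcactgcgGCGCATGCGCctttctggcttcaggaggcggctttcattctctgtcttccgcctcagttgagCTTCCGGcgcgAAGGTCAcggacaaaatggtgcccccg
Atp5l: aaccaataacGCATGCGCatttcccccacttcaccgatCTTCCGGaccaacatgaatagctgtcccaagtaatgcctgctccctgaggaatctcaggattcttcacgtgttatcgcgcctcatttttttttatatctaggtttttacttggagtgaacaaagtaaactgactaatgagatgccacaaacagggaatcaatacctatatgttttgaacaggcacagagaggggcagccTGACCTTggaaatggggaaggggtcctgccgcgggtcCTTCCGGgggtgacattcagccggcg
Cox8a: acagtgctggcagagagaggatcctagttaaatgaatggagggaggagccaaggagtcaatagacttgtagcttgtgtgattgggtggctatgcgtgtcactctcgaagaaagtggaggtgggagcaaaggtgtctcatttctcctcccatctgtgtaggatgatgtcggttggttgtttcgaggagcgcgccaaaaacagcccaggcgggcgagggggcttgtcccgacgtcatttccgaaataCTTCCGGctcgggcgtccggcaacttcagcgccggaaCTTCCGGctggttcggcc

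The Atp5k and Atp5l windows each held NRF1, ETS and oestrogen-related receptor letters, and the Cox8a window held ETS letters alone. The windows of the subunit e and subunit g genes thus held the same 3 motifs. With the NRF1 letters the median log2 change in obese eWAT was -0.60 (6 genes), against -0.72 without them (25 genes), and in obese iWAT it was -0.76 against -0.68. A match of letters is a description of the window and not a measured binding site.

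Total counts per library ran from 1.32 M to 25.9 M in eWAT and from 6.27 M to 34.3 M in iWAT. The library of 1.32 M was replicate 2 of 2-week regression eWAT, a group with a median of 6.33 M. Changes are log2 fold changes with standard errors (SE) from edgeR's quasi-likelihood test over all libraries of a depot, and a gene was called when its p, adjusted by the Benjamini-Hochberg method over all genes tested (14323 in eWAT, 13899 in iWAT), was under 0.05. Levels are CPM scaled by the trimmed mean of M values over all 94 libraries. Replicates 1 to 3 and replicates 4 to 6 of every group carry 2 separate ranges of mouse numbers, and each count of calls was also made within each range. Skeletal muscle markers were spread unevenly over the iWAT libraries, duct markers of the epididymis were at 100 CPM or more in 4 eWAT libraries, and lymphocyte markers were high in a few iWAT libraries. These are given beside the results they touch.

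In the lean mice the members spanned a wide range of levels. Per kilobase of transcript, Cox8a was highest in both depots, at 952 ± 196 CPM per kb in iWAT and 766 ± 119 in eWAT (SD, n = 24 lean mice each). In iWAT it was followed by Uqcrq, a small subunit of complex III, at 636 ± 153 CPM per kb, and Atp5b, the catalytic beta subunit of ATP synthase, at 620 ± 141. These neighbours did not differ beyond their spread, and in eWAT their order was the other way round, with 476.3 ± 72.7 CPM per kb for Atp5b and 445.8 ± 94.1 for Uqcrq. At the low end stood Cox4i2, the hypoxia-linked isoform of subunit 4, at 3.02 ± 1.09 CPM per kb in iWAT and 2.97 ± 1.04 in eWAT, and Cox6b2, a testis-linked isoform, at 3.43 ± 1.04 in iWAT and 5.08 ± 1.69 in eWAT. Atp5s was at 5.42 ± 1.04 CPM per kb in iWAT and 5.76 ± 1.09 in eWAT. The paired ubiquitous isoforms Cox4i1 (209 ± 31.0 CPM per kb in eWAT) and Cox6b1 (80.9 ± 16.8) lay far above Cox4i2 and Cox6b2. Of the 3 genes for the same mature c-ring subunit, Atp5g3 was at 227 ± 39.0 CPM per kb in lean eWAT, Atp5g2 at 36.0 ± 6.22 and Atp5g1 at 23.95 ± 4.56. In the annotation, 100% of short stretches of the Atp5g2 transcript and 66% of those of Atp5g1 also occur in transcripts of other genes. For Atp5g3 the share is 0%. How reads were counted is not stated, so this order describes the counts and may not hold for the genes.

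Lean iWAT carried more of these transcripts than lean eWAT. In a fit over both depots with the mouse as a block, 30 of 38 members were higher in lean iWAT (30.1% of the 13564 genes tested were higher) and 2 were lower (26.4% of all genes). The median difference, iWAT minus eWAT, was 0.32 on the log2 scale, against 0.02 over all genes. Cox5a, a subunit on the matrix side of complex IV, differed most, with 38.5 ± 10.99 CPM in iWAT and 23.4 ± 4.84 CPM in eWAT (log2 difference 0.67, SE 0.08, adjusted p = 1.1e-09). Uqcrfs1, the Rieske iron-sulfur protein, had 452.2 ± 96.9 CPM in iWAT and 296 ± 45.5 CPM in eWAT (log2 difference 0.58, SE 0.05, adjusted p = 3.63e-12). The 2 that were lower in iWAT were Cox6b2 (log2 difference -0.55, SE 0.16, adjusted p = 0.00268) and Atp5g1 (log2 difference -0.33, SE 0.09, adjusted p = 0.00127). Markers of other cell types differed between the lean depots as well. All 5 tested brown or beige adipocyte markers were higher in iWAT, where the list summed to 104.8 to 707 CPM over the lean libraries, against 11.2 to 43.7 CPM in eWAT, and so were the 3 skeletal muscle markers tested in both depots, with list sums of 9.90 to 37600 CPM in iWAT and 9.71 to 173 CPM in eWAT. 9 of 10 macrophage markers (511 to 2736 CPM in iWAT, 429.1 to 993 CPM in eWAT), 5 of 6 fibroblast and progenitor markers (2384 to 8776 CPM in iWAT, 1374 to 2256 CPM in eWAT) and 8 of 8 T and B cell markers (7.23 to 820 CPM in iWAT, 5.62 to 51.1 CPM in eWAT) were also higher in iWAT. Of 10 adipocyte markers 1 was higher and 5 lower in iWAT (19410 to 47870 CPM in iWAT, 28740 to 52410 CPM in eWAT), and of 6 endothelial markers 1 was higher and 3 lower (704 to 1524 CPM in iWAT, 711 to 1584 CPM in eWAT). Their part in the depot difference of the members was not tested.

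At the end of the high-fat diet almost the whole group of genes was lower in both depots. In eWAT 32 of 38 members (84.2%) were called lower, against 9.31% of all genes tested, and 0 were called higher, against 14.1%. In iWAT 31 of 39 (79.5%) were called lower, against 15.5% of all genes, and 0 higher, against 14.7%. The median log2 change of the members was -0.69 in eWAT and -0.74 in iWAT, where all tested genes had medians of -0.00 and 0.02. All 5 obese libraries lay below all 6 lean libraries for 14 of the 38 members in eWAT, as for 4.22% of all genes tested, and for 29 of the 39 in iWAT, as for 10.2% of all genes. The 2 depots called 30 of these genes in common, which is 93.8% of the eWAT calls and 96.8% of the iWAT calls. Within the mouse number ranges, 19 members were called lower in eWAT among replicates 1 to 3 (1.84% of all genes in that fit) and 13 among replicates 4 to 6 (3.6%), with medians of -0.66 and -0.71. In iWAT 26 were called lower among replicates 1 to 3 (8.99% of all genes) and 11 among replicates 4 to 6 (4.37%), with medians of -0.82 and -0.63.

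**Figure D1:**
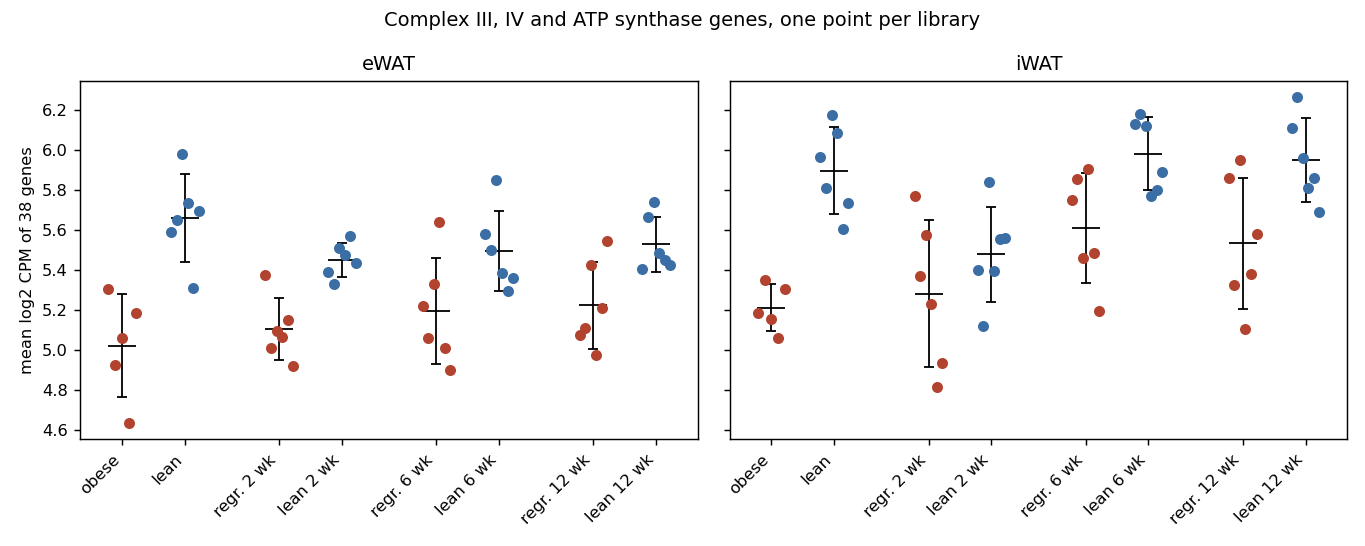
Mean log2 CPM of the 38 genes that are members in both depots, 1 point per library, by group (obese or regression left of its lean controls at each time) with eWAT and iWAT in separate panels and bars at the mean ± SD. The obese libraries lie between 4.63 and 5.30 in eWAT, against 5.31 to 5.98 in their lean controls, and between 5.06 and 5.35 in iWAT, against 5.61 to 6.18.

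As a summary per library, the mean log2 CPM of the 38 shared members had its median at 5.06 in obese eWAT and 5.67 in lean eWAT, and at 5.18 in obese iWAT and 5.89 in lean iWAT. The obese and lean libraries did not overlap in either depot, by a narrow margin in eWAT, where the highest obese library stood at 5.30 and the lowest lean library at 5.31. The plot of these means by library shows that lean iWAT was lower at the 2-week time, with a median of 5.48, than at the other 3 times, where lean medians lay between 5.89 and 6.00.

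All 8 complex III members fell in both depots in obesity, by a median of 0.67 in eWAT and 0.93 in iWAT on the log2 scale. Uqcrfs1 (chr13:30540308-30545362, build GRCm38, minus strand) had 190.5, 246.5, 185, 183.8 and 280.1 CPM in the 5 obese iWAT libraries, against a lowest value of 401.4, a median of 482.3 and a highest of 595 CPM in lean iWAT. The groups did not overlap, and the log2 change was -1.16 (SE 0.20, adjusted p = 2.43e-05), the deepest of any member in iWAT. In eWAT the same gene had 247.9, 184.2, 215, 133.2 and 212.2 CPM in obese libraries, against 227, 320 and 357 CPM (lowest, median and highest) in lean libraries, so that 1 obese library reached into the lean range (log2 change -0.61, SE 0.17, adjusted p = 0.00739). The core proteins Uqcrc1 and Uqcrc2 fell by 0.59 and 0.79 in eWAT and by 0.78 and 1.08 in iWAT. The smallest member changes were those of Uqcr11, a small subunit of the membrane part, which fell by 0.59 in eWAT and by 0.70 in iWAT.

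In complex IV, 10 members were called lower in each depot, in both cases Cox4i1, Cox5a, Cox5b, Cox6a1, Cox6b1, Cox6c, Cox7a2, Cox7b, Cox7c and Cox8a. Cox5a (chr9:57521274-57532426, plus strand) was the deepest in both. It had 18.9, 10.9, 12.2, 9.91 and 16.9 CPM in obese eWAT, against 20, 27.6 and 35.8 CPM (lowest, median, highest) in lean eWAT, with no overlap (log2 change -0.97, SE 0.18, adjusted p = 0.000231). In iWAT it had 18.1, 18.9, 19.6, 16.1 and 20.1 CPM in obese libraries, against 32.0, 35.5 and 52.5 CPM in lean libraries, again with no overlap (log2 change -1.06, SE 0.24, adjusted p = 0.0007). Cox6a1, the widely expressed isoform of subunit 6a, averaged 125 ± 12.8 CPM in obese iWAT and 250.3 ± 45.2 CPM in lean iWAT, a log2 change of -1.003 (SE 0.20, adjusted p = 0.000255). Cox8a, the member with the highest level per length, had 436.9, 239.6, 335.9, 194 and 303.2 CPM in obese eWAT, against 295.2, 474.5 and 537.5 CPM (lowest, median, highest) in lean eWAT (log2 change -0.54, SE 0.18, adjusted p = 0.0255). In iWAT it had 310.1, 349.3, 298.1, 294.5 and 358.8 CPM in obese libraries, against 454.7, 566.6 and 645.5 CPM in lean libraries (log2 change -0.79, SE 0.17, adjusted p = 0.000666). Its groups overlapped in eWAT and were apart in iWAT. The members that were not called in either depot were the low-level isoforms Cox4i2 and Cox6b2 and the abundant Cox7a2l.

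Cox7a2l (chr17:83501918-83517330, minus strand) encodes a protein known for a role in supercomplexes of complexes III and IV rather than a catalytic subunit. Its allele and protein in these mice were not examined, so its transcript level does not tell whether supercomplexes form. Its 5 obese eWAT libraries held 109.5, 107.7, 103.8, 106.6 and 98.7 CPM, against 96.4, 106 and 121 CPM (lowest, median, highest) in lean eWAT. The obese values lay inside the lean range, and the log2 change of 0.00 had an SE of 0.07 (adjusted p = 0.994). In iWAT the log2 change was -0.15 (SE 0.08, adjusted p = 0.165), with 100.1 ± 8.996 CPM in obese mice and 111 ± 11.8 CPM in lean mice.

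In ATP synthase, 14 of 17 members were called lower in eWAT and 13 of 17 in iWAT, with medians of -0.61 and -0.57. Among the subunits of the catalytic head and central stalk, Atp5b (chr10:128083273-128090391, plus strand), the beta subunit, had 742.7, 513.6, 670.2, 374.1 and 645.6 CPM in obese eWAT, against 690, 1019 and 1125 CPM (lowest, median, highest) in lean eWAT. Only the highest obese library overlapped with the lean ones (log2 change -0.72, SE 0.16, adjusted p = 0.00135). In iWAT Atp5b fell by 0.85 (SE 0.19, adjusted p = 0.000637) with no overlap, the gamma subunit gene Atp5c1 by 0.68 and the delta subunit gene Atp5d by 0.72. The peripheral stalk genes Atp5f1, Atp5h and Atp5j also fell in both depots, by 0.43, 0.83 and 0.53 in eWAT and by 0.66, 0.54 and 0.41 in iWAT. Atp5o, the stalk subunit that gives the enzyme its oligomycin sensitivity, was called lower in eWAT (log2 change -0.88, adjusted p = 0.0013) and had a log2 change of -0.57 in iWAT (adjusted p = 0.0734).

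Of the small membrane subunits, Atp5k (subunit e) was the deepest of all members in eWAT. It had 3.88, 2.95, 1.73, 2.02 and 4.23 CPM in the obese libraries, against 3.90, 6.19 and 10.2 CPM (lowest, median, highest) in lean libraries, a log2 change of -1.13 (SE 0.25, adjusted p = 0.00114). 1 obese library lay above the lowest lean library. In iWAT Atp5k fell by 0.93 (SE 0.24, adjusted p = 0.00277) with no overlap. Atp5l (subunit g) had 12.9, 13.9, 13.1, 10.4 and 13.3 CPM in obese eWAT, against 12.95, 18.3 and 19.2 CPM in lean eWAT, and missed the threshold there (log2 change -0.42, SE 0.16, adjusted p = 0.0503). In iWAT, where its groups did not overlap, Atp5l fell by 0.74 (SE 0.16, adjusted p = 0.000544). Atp5s and Atp5sl, whose products are not structural subunits of the enzyme in spite of the symbol, were not called in either depot, and nor was the c-ring gene Atp5g1 in iWAT (log2 change -0.13, adjusted p = 0.692).

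**Figure D2:**
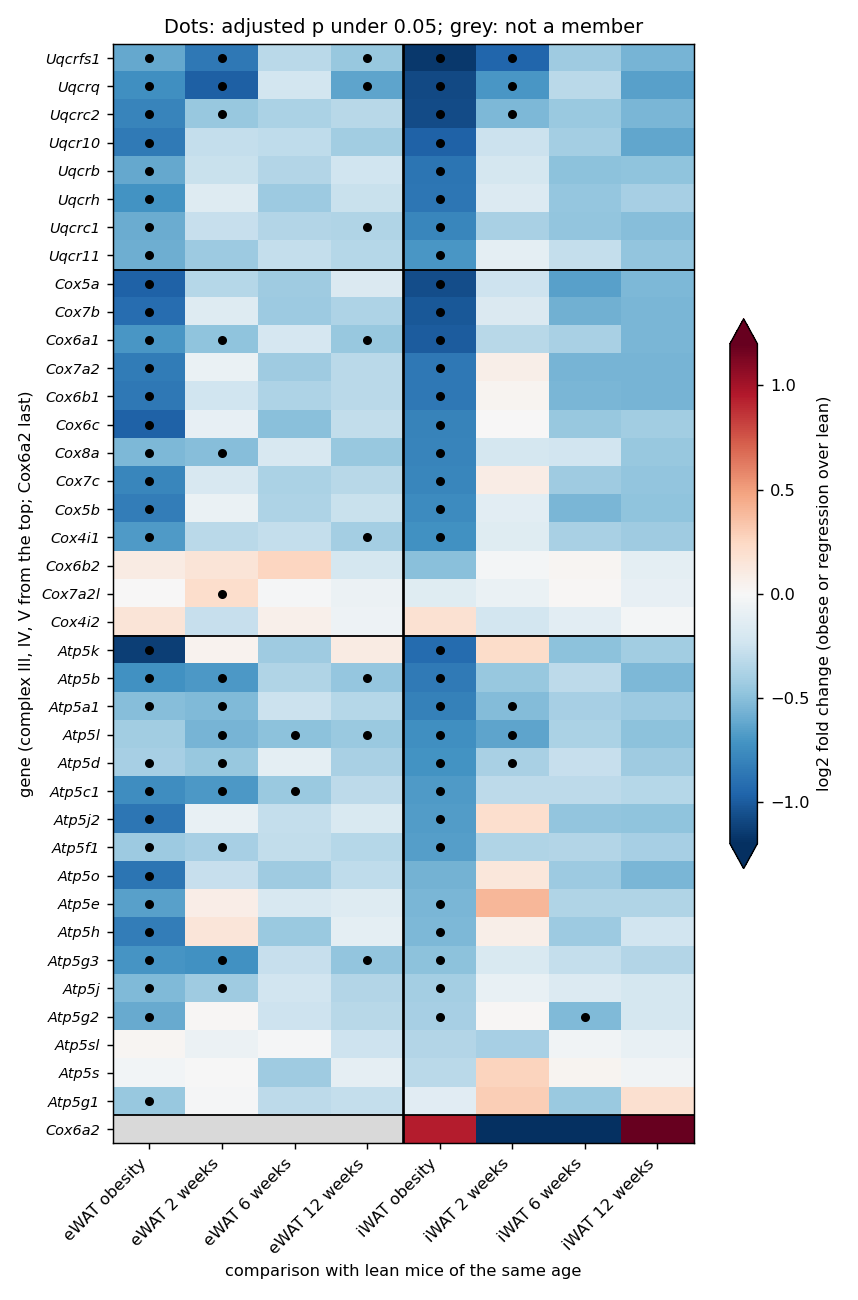
Log2 fold change of each member (rows, by complex, with Cox6a2 last) in the 4 comparisons of each depot (columns: obese, then 2, 6 and 12 weeks of regression, each against its lean controls). A dot marks a call at an adjusted p under 0.05, and in eWAT there are 32 in obesity, 14 at 2 weeks (13 lower, 1 higher), 2 at 6 weeks and 8 at 12 weeks, while in iWAT there are 31, 6, 1 and 0.

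Other cell types moved with the obese groups. All 10 macrophage markers were called higher in obese eWAT, with summed levels of 830 to 3739 CPM against 512 to 654 CPM in lean eWAT, and 8 of 10 in obese iWAT, with 1089 to 3739 CPM against 511 to 1327 CPM. Of 10 adipocyte markers, 3 were called lower in obese eWAT (summed levels 19730 to 44510 CPM, against 30890 to 52410 CPM), and 5 lower and 1 higher in obese iWAT (30410 to 37520 CPM, against 33070 to 44090 CPM). 5 of 6 fibroblast and progenitor markers were called higher in obese eWAT (1825 to 2915 CPM, against 1447 to 1895 CPM) and 5 of 6 in obese iWAT (5643 to 8560 CPM, against 2384 to 4421 CPM). Of 6 endothelial markers 0 were called in obese eWAT (914 to 1510 CPM, against 711 to 1350 CPM) and 2 higher in obese iWAT (656 to 1684 CPM, against 704 to 1221 CPM). 2 of 5 tested duct markers were called higher in obese eWAT, where 1 of the 5 libraries held 1205 CPM of them, and without the 4 eWAT libraries rich in duct markers 29 members were lower. In iWAT all 7 tested brown or beige adipocyte markers, among them Ucp1, were called lower, with summed levels of 47.4 to 148 CPM in obese and 228 to 641 CPM in lean mice. Of the 6 tested in obese eWAT 2 were called lower and 1 higher, with a list median of -1.09 (8.63 to 47.9 CPM, against 22.0 to 41.1 CPM). No macrophage, adipocyte, fibroblast, endothelial or brown or beige marker was at 0 in all libraries of a group. The part of these cell types in the fall of the members was not tested.

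After 2 weeks on the low-fat diet a subset of the genes was still lower. In eWAT 13 of 38 members (34.2%) were called lower than in lean controls, against 17.1% of all genes, and 1 was called higher, against 18.6%. In iWAT 6 of 39 (15.4%) were called lower, against 9.37% of all genes, and 0 higher, against 9.44%. The iWAT share is near that of all genes. The medians of the members were -0.28 in eWAT and -0.17 in iWAT, with all tested genes at 0.02 and -0.00. All 6 genes called in iWAT, namely Uqcrc2, Uqcrfs1, Uqcrq, Atp5a1, Atp5d and Atp5l, were also called in eWAT, where the others were Cox6a1, Cox8a, Atp5b, Atp5c1, Atp5f1, Atp5g3 and Atp5j. Of the 13 genes called in eWAT, 12 had also been called lower in obese eWAT, in other mice, which is 92.3% of the 2-week calls and 37.5% of the obesity calls. All regression libraries lay below all lean libraries for 9 of 38 members in eWAT, as for 6.72% of all genes, and for 1 of 39, Atp5l, in iWAT, as for 2.43%.

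The 2-week values in iWAT differed between the ranges of mouse numbers. Among replicates 1 to 3, 0 members were called lower (2.35% of all genes in that fit) and 1 higher (2.66%), with a median log2 change of 0.12. Among replicates 4 to 6, 17 were called lower (7.89% of all genes) and 0 higher (7.01%), with a median of -0.59. Leaving out lean replicate 3 reduced the count of lower calls in iWAT to 2, and leaving out regression replicate 5 reduced it to 3. In eWAT the median was -0.20 among replicates 1 to 3, with 6 called lower (7.39% of all genes) and 0 higher (7.16%), and -0.37 among replicates 4 to 6, with 8 called lower (12%) and 1 higher (13.8%). In iWAT, 3 of 12 skeletal muscle markers (8.23 to 2134 CPM, against 17.6 to 5658 CPM) and 3 of 8 T and B cell markers (7.11 to 138 CPM, against 7.68 to 820 CPM) were called lower at 2 weeks, and without the iWAT libraries rich in lymphocyte markers the count of lower members was 10. Macrophage markers were called higher in eWAT (10 of 10, 1121 to 3385 CPM against 539 to 771 CPM) and in iWAT (3 of 10, 1965 to 4523 CPM against 1192 to 2736 CPM). Of 10 adipocyte markers 4 were called lower in eWAT (20000 to 42360 CPM, against 30920 to 50620 CPM). In iWAT 0 were lower and 2 higher (18930 to 39880 CPM, against 19410 to 37580 CPM). In eWAT 2 of 8 T and B cell markers and 2 of 6 endothelial markers were called higher. Of 6 tested brown or beige markers in eWAT 2 were lower and 1 higher. In iWAT, 5 of 7 tested brown or beige adipocyte markers were called lower at 2 weeks, with summed levels of 16.9 to 90.2 CPM in regression and 104.8 to 608 CPM in lean mice, so that these groups did not overlap. In eWAT, 4 of 6 fibroblast and progenitor markers were called higher (2086 to 3582 CPM, against 1485 to 2177 CPM), and 4 of 5 tested duct markers lower, where 1 lean library held 2576 CPM of them and the regression libraries at most 2.12 CPM. Without the eWAT libraries rich in duct markers 13 members were called lower and 1 higher at 2 weeks, as with them. The part of the other cell types in these calls was not tested.

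Uqcrfs1 and Uqcrq of complex III carried the deepest changes of the called members at 2 weeks. Uqcrfs1 had 123, 145 and 215 CPM (lowest, median, highest) in regression eWAT, against 237, 277 and 377 CPM in lean eWAT (log2 change -0.86, SE 0.16, adjusted p = 8.23e-05). In iWAT the values were 120, 180 and 248 CPM in regression mice, against 233, 339 and 528 CPM in lean mice (log2 change -0.96, SE 0.18, adjusted p = 0.00032). The groups were apart in eWAT, while in iWAT the highest regression library lay above the lowest lean library. Uqcrq had 61.1, 77.4 and 129 CPM in regression eWAT, against 147, 177 and 223 CPM in lean eWAT, a log2 change of -0.98 (SE 0.21, adjusted p = 0.00037). Its lowest regression value came from the shallow library of 1.32 M counts. Uqcrh, the acidic hinge protein of complex III, was not called, with 33.96 ± 8.34 CPM in regression eWAT and 37.9 ± 5.72 CPM in lean eWAT (log2 change -0.15, SE 0.17, adjusted p = 0.518).

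At 2 weeks 8 members of ATP synthase were called lower in eWAT and 9 were not called. The catalytic head genes Atp5a1 and Atp5b and the central stalk gene Atp5c1 were called lower in eWAT, with log2 changes of -0.53, -0.69 and -0.69. So was Atp5g3, the c-ring gene with the highest counted level (log2 change -0.72, SE 0.16, adjusted p = 0.000385). Atp5g3 had 78.5, 89.3 and 114 CPM in regression eWAT (lowest, median, highest), against 137, 157 and 183 CPM in lean eWAT, with no overlap. The other c-ring genes Atp5g1 and Atp5g2 had log2 changes of -0.01 and 0.02 (adjusted p = 0.97 and 0.96). Their transcripts share 66% and 100% of short stretches with transcripts of other genes, against 0% for Atp5g3. Their counts may thus hold reads of near-identical copies, or lack reads that match several genes. Whether the c-ring genes differ in their response cannot be decided from these counts. Atp5k, the deepest gene in obesity, had 3.53, 4.26 and 5.38 CPM in regression eWAT, against 3.26, 4.39 and 5.21 CPM in lean eWAT (log2 change 0.04, SE 0.24). The ranges of Atp5k overlapped, and the same held in iWAT, with 2.18, 5.14 and 9.01 CPM in regression mice against 3.46, 4.59 and 5.32 CPM in lean mice (log2 change 0.22, SE 0.22).

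Atp5l, which had missed the threshold in obese eWAT, was called lower in both depots at 2 weeks. In eWAT at 2 weeks it had 7.39, 9.85 and 12.8 CPM in regression mice (lowest, median, highest), against 11.9, 15.2 and 17.5 CPM in lean mice (log2 change -0.56, SE 0.16, adjusted p = 0.00447). In iWAT it had 7.23, 9.56 and 11.9 CPM in regression mice, against 12.2, 14.7 and 19.7 CPM in lean mice, with no overlap (log2 change -0.63, SE 0.15, adjusted p = 0.00351). In complex IV only Cox6a1 and Cox8a were called lower in eWAT (log2 changes -0.48 and -0.51) and none in iWAT, where the lowest adjusted p was 0.218. Cox7a2 had the smallest change in complex IV in eWAT (-0.08, adjusted p = 0.81). Cox7a2l was the 1 member called higher in eWAT, with 115 ± 17.6 CPM in regression mice and 100.8 ± 10.4 CPM in lean mice (log2 change 0.21, SE 0.07, adjusted p = 0.0153), and the call was lost without lean replicate 6.

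**Figure D3:**
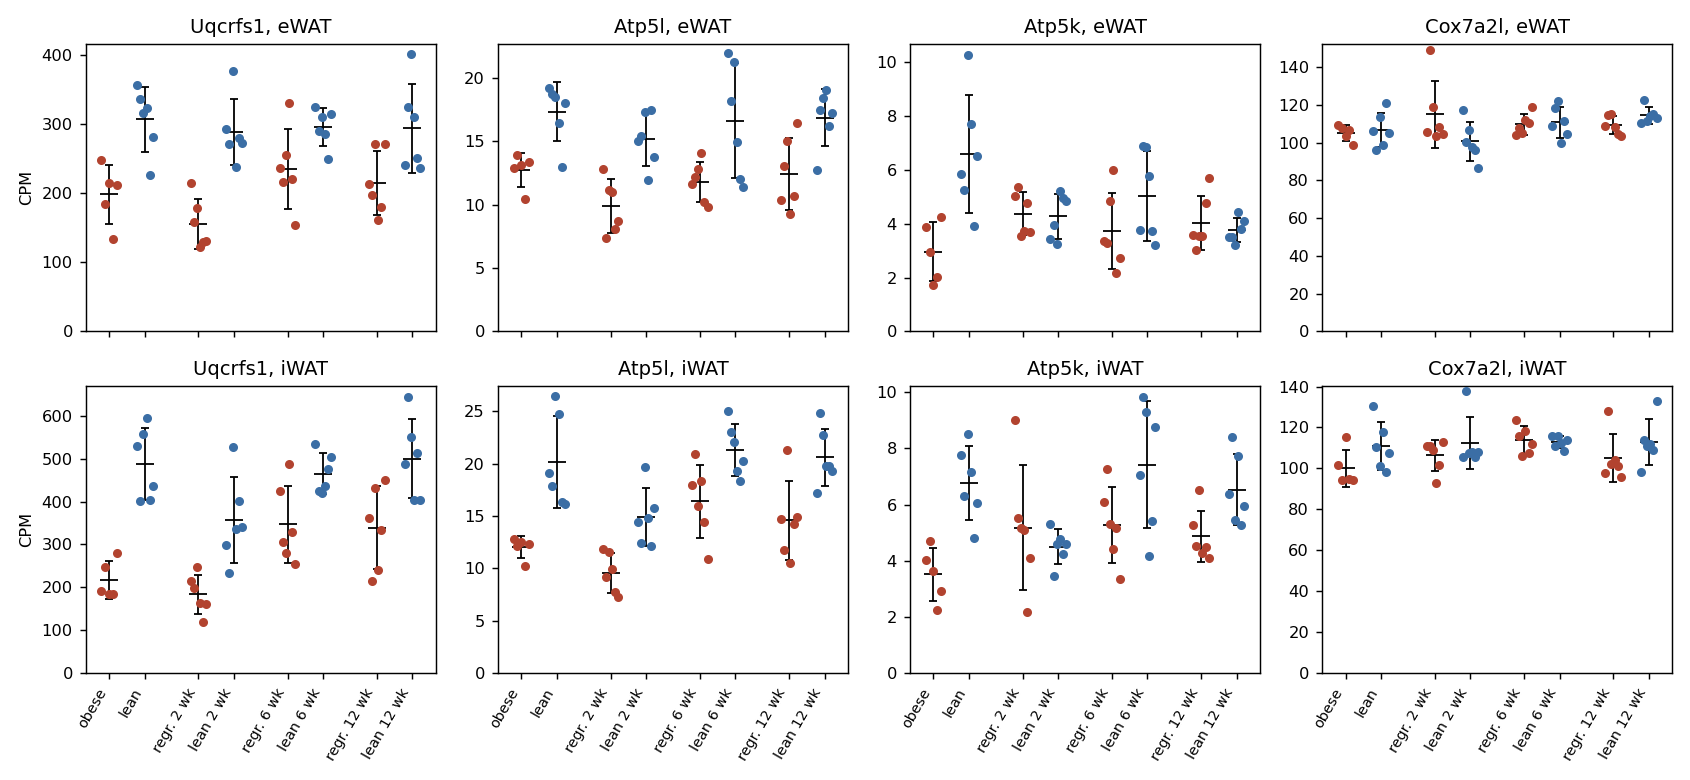
CPM of Uqcrfs1, Atp5l, Atp5k and Cox7a2l in every library, by group and depot, with obese or regression mice left of their lean controls and bars at the mean ± SD. Uqcrfs1 and Atp5l lie low in the 2-week regression groups, where Atp5k covers its lean range, and the group means of Cox7a2l stay between 100 and 115 CPM.

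**Figure D4:**
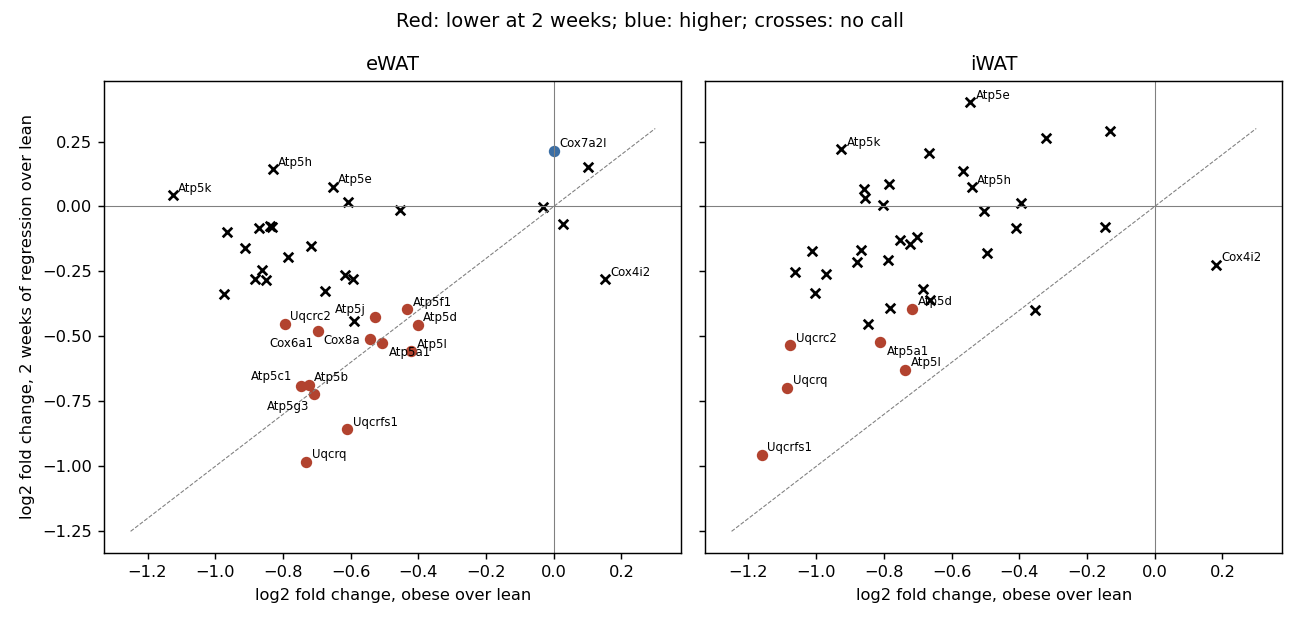
Log2 fold change of each member at 2 weeks of regression (vertical axis) against that in obesity (horizontal axis), 1 panel per depot, each against its own lean controls, with called members as dots, the others as crosses and a dashed line where both changes are equal. In eWAT 6 of the 13 members called lower lie under that line and 7 above it, up to 0.34 above for Uqcrc2, with Uqcrq at -0.98 lowest, while 22 of the 24 members without a call lie above it, with Atp5k at 0.04. In iWAT all 6 members called lower lie above the line.

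In eWAT the 13 members called at 2 weeks had a median log2 change in obesity of -0.61, against -0.72 for the other 25. Across the 38 members the 2-week and obesity changes had a Pearson correlation of 0.16 in eWAT and 0.44 in iWAT, as the scatter plot of both changes shows. The called members were the more abundant ones, with lean levels at 2 weeks of 15.2, 157 and 907 CPM (lowest, median, highest), against 1.81, 22.9 and 148 CPM for the others, and had longer transcripts, with medians of 931 and 618 bases. The 2-week change correlated with the log2 lean level at r = -0.66 in eWAT and -0.59 in iWAT over 38 members, and the obesity change at r = -0.29 and -0.51. The same lean libraries enter the level and the change, and members share libraries, so these correlations describe the genes and carry no test. The 2-week changes of the same gene in iWAT and eWAT, which come from the same mice, correlated at r = 0.76.

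The difference between the 2-week and obesity effects was itself tested. In eWAT 3 members had a higher log2 change at 2 weeks than in obesity (2.09% of all genes did so, and 3.74% were lower, with 0 members among them). They were Cox6c, with a log2 difference of 0.87 (SE 0.24, adjusted p = 0.0246), Atp5h with 0.97 (SE 0.23, adjusted p = 0.00844) and Atp5k with 1.17 (SE 0.34, adjusted p = 0.034). Cox6c, a membrane subunit of complex IV, had 40.4, 34.7, 41.6, 20.8 and 43.6 CPM in obese eWAT, against 56.5, 72.5 and 87.8 CPM in lean eWAT, and 36.9, 49.3 and 60.8 CPM in 2-week regression eWAT, against 43.6, 52.8 and 62.4 CPM in lean controls. The obese and lean libraries were apart and the 2-week ones overlapped. In iWAT Atp5e, the epsilon subunit of the central stalk, had a log2 difference of 0.94 (SE 0.26, adjusted p = 0.0309) and Atp5k of 1.15 (SE 0.32, adjusted p = 0.0355), beside 1.89% of all genes higher and 2.12% lower. The medians of this difference over the members were 0.33 in eWAT and 0.58 in iWAT, against 0.02 and -0.01 over all genes. These differences also hold the levels of the lean controls. The mean log2 CPM of the 38 shared members averaged 5.28 in 2-week regression iWAT and 5.48 in its lean controls, and 5.21 in obese iWAT and 5.89 in its lean controls, so that in iWAT the lean means differed more between the 2 times than the obese and regression means did. In eWAT it averaged 5.10 in 2-week regression mice and 5.45 in their lean controls, and 5.02 in obese mice and 5.66 in their lean controls.

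At 6 weeks most members had negative changes of modest size that mostly missed the threshold. In eWAT 36 of 38 had a negative log2 change, with a median of -0.32, and 2 were called lower (5.26%, against 2.02% of all genes), with 0 higher (5.56% of all genes). The 2 were Atp5c1 (90.5 ± 19.4 CPM in regression eWAT and 123 ± 17.0 CPM in lean eWAT, log2 change -0.45, SE 0.14, adjusted p = 0.0398) and Atp5l (11.8 ± 1.60 CPM and 16.6 ± 4.55 CPM, log2 change -0.49, SE 0.15, adjusted p = 0.0381). At an unadjusted p under 0.05 there were 21 of 38 members, beside 25.3% of all genes. By size the changes in complex III ran between -0.22 for Uqcrq and -0.43 for Uqcrh, in complex IV between -0.50 for Cox6c and 0.26 for Cox6b2, and in ATP synthase between -0.49 for Atp5l and -0.01 for Atp5sl. The count rested on single libraries: it was 15 without regression replicate 4, 4 without lean replicate 6, and 0 without any 1 of lean replicates 1, 2 and 3 or regression replicates 1, 2, 5 and 6. Within replicates 1 to 3 and within replicates 4 to 6 it was 0, as were all genes called lower in those fits (0%), with medians of -0.47 and -0.11. In iWAT 36 of 39 were negative, with a median of -0.40, and 1 was called lower (2.56%, against 0.482% of all genes), with 0 higher (0.554% of all genes). At an unadjusted p under 0.05 there were 26 of 39, beside 18% of all genes. Within each of the 2 ranges of mouse numbers the iWAT count was 0 (0% and 0.0144% of all genes), with medians of -0.48 and -0.26, and without regression replicate 4 it was 2.

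The 1 gene called in iWAT at 6 weeks was Atp5g2, a c-ring gene. It had 12.4, 14.8 and 17.8 CPM in regression iWAT (lowest, median, highest), against 17.8, 22.4 and 24.6 CPM in lean iWAT, a log2 change of -0.53 (SE 0.11, adjusted p = 0.00729). The highest regression library lay just above the lowest lean library. In complex III the changes lay between -0.28 for Uqcr11 and -0.50 for Uqcrb, in complex IV without Cox6a2 between -0.65 for Cox5a and 0.03 for Cox6b2, and in ATP synthase between -0.53 for Atp5g2 and 0.03 for Atp5s, none called but Atp5g2. All 50-base stretches of its shortest principal transcript in the annotation also occur in transcripts of other genes. Its count may thus hold reads of near-identical copies, or lack reads that match several genes.

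At 12 weeks 37 of 38 changes in eWAT were negative, with a median of -0.33. 8 members were called lower (21.1%, against 4.51% of all genes) and 0 higher (10.8% of all genes): Uqcrc1, Uqcrfs1, Uqcrq, Cox4i1, Cox6a1, Atp5b, Atp5g3 and Atp5l. Of these, 6 had been called at 2 weeks as well, which is 75% of the 12-week calls and 46.2% of the 2-week calls, in separate mice on both sides. Uqcrq had the largest change, with 80.3, 113 and 173 CPM in regression eWAT (lowest, median, highest), against 137, 176 and 271 CPM in lean eWAT (log2 change -0.63, SE 0.21, adjusted p = 0.0342). Atp5b had 536, 591 and 820 CPM in regression eWAT, against 745, 801 and 1192 CPM in lean eWAT (log2 change -0.46, SE 0.15, adjusted p = 0.0371). The other 6 had log2 changes of -0.36 (Uqcrc1, SE 0.12, adjusted p = 0.0326), -0.46 (Uqcrfs1, SE 0.16, adjusted p = 0.046), -0.41 (Cox4i1, SE 0.14, adjusted p = 0.0414), -0.45 (Cox6a1, SE 0.16, adjusted p = 0.0498), -0.47 (Atp5g3, SE 0.15, adjusted p = 0.0324) and -0.44 (Atp5l, SE 0.15, adjusted p = 0.0418). The smallest changes in the 3 complexes were those of Uqcrb (-0.23), Cox4i2 (-0.06) and Atp5k (0.10). These groups overlapped, as they did for all 38 members at 12 weeks, while 0.656% of all genes had every regression library below every lean library. The smallest adjusted p was 0.0324, and the count was 16 without regression replicate 6 and 14 without regression replicate 3, but 1 without regression replicate 2 and 0 without any 1 of regression replicates 1, 4 and 5 or lean replicates 2 and 3. Within replicates 1 to 3 it was 1 (0.936% of all genes) and within replicates 4 to 6 it was 0 (0.00698%), with medians of -0.43 and -0.21.

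In iWAT at 12 weeks 37 of 39 members had a negative log2 change, with a median of -0.44 against 0.04 over all genes. By edgeR 0 were called lower and 0 higher, and by DESeq2 also 0, while 26 of 39 had an unadjusted p under 0.05, beside 14.9% of all genes, and the smallest adjusted p was 0.146. Few genes of any kind were called in that comparison, 0.00719% lower and 0.0216% higher. Uqcrfs1, for example, had 216, 348 and 451.1 CPM in regression iWAT (lowest, median, highest), against 402.8, 500.4 and 643 CPM in lean iWAT (log2 change -0.56, SE 0.18, adjusted p = 0.172). Complex III had changes between -0.40 for Uqcrh and -0.66 for Uqcrq. In complex IV without Cox6a2 the changes ran between -0.56 for Cox6b1 and -0.03 for Cox4i2, and in ATP synthase between -0.55 for Atp5o and 0.19 for Atp5g1. The medians within the 2 ranges of mouse numbers were -0.42 and -0.41. In this depot, 0 of the 10 macrophage markers were called at 6 or 12 weeks. In eWAT 9 of 10 were called higher at 6 weeks (827 to 3797 CPM, against 500 to 764 CPM) and 10 of 10 at 12 weeks (720 to 4068 CPM, against 429.1 to 993 CPM), and 6 of 8 T and B cell markers were called higher at 12 weeks (6.76 to 126 CPM, against 5.63 to 32.9 CPM). In iWAT, 0 of 7 tested brown or beige adipocyte markers were called at either time, with list medians of -0.94 at 6 weeks and -1.31 at 12 weeks on the log2 scale. Their summed levels were 58.2 to 372.5 CPM in regression and 351.8 to 523 CPM in lean mice at 6 weeks, and 56.6 to 261 CPM in regression and 357 to 707 CPM in lean mice at 12 weeks, when the groups did not overlap. 2 of 6 fibroblast and progenitor markers were called higher in eWAT at each of the 2 times, 1 of 6 in iWAT at 6 weeks and 0 at 12 weeks. All 5 tested duct markers were called lower in eWAT at 6 weeks, where 1 lean library held 5669 CPM of them and the regression libraries at most 9.26 CPM, and without the libraries rich in duct markers 3 members were lower then and 7 at 12 weeks. The part of these cell types in the members' values was not tested.

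Against obesity, the 12-week effect was higher for 1 member in eWAT, Atp5k, with a log2 difference of 1.23 (SE 0.34, adjusted p = 0.0424), beside 0.726% of all genes higher and 1.6% lower. Without the filter on low counts, or with the replicate number as a block, 0 members were called in this eWAT comparison. No member was called in iWAT, where the smallest adjusted p was 0.195 and 2.35% of all genes were higher and 2.5% lower. From 2 to 6 weeks no member's effect was called different in either depot, at smallest adjusted p values of 0.181 in eWAT (0.593% of all genes higher, 0.202% lower) and 0.102 in iWAT (0.101% higher, 0.115% lower). At an unadjusted p under 0.05 there were 13 members in eWAT (14.4% of all genes) and 3 in iWAT (19.3%) from obesity to 12 weeks. From 2 to 6 weeks there were 4 in eWAT (16.1% of all genes) and 7 in iWAT (12%).

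The effects were also compared between the depots of the same mice. In obesity 0 of 38 members were called different in their change, iWAT minus eWAT (0.759% of all genes higher, 0.664% lower), with a median difference of -0.05 and 2 members at an unadjusted p under 0.05 (12% of all genes). At 2 weeks 2 of 38 members were higher in iWAT (6.58% of all genes higher, 4.19% lower), both of ATP synthase. This share is near that of all genes. Atp5g3 had a log2 change of -0.18 in iWAT and -0.72 in eWAT (difference 0.56, SE 0.14, adjusted p = 0.00895), and Atp5c1 had -0.32 in iWAT and -0.69 in eWAT (difference 0.41, SE 0.14, adjusted p = 0.0437). At 6 weeks (0.464% of all genes higher, 0.339% lower) and 12 weeks (0.0295% higher, 0.0369% lower) 0 members were called, with 1 at an unadjusted p under 0.05 at 6 weeks (15.6% of all genes) and 0 at 12 weeks (17.6%).

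Cox6a2 (chr7:128205435-128206387), the muscle isoform, was high where skeletal muscle markers were high in the iWAT libraries. It had 3.87, 1.32, 2.65, 3.58 and 3.34 CPM in obese iWAT, against 0, 1.10 and 4.18 CPM (lowest, median, highest) in lean iWAT. The groups overlapped and the log2 change of 0.94 had an SE of 0.99 (adjusted p = 0.507). Its changes at 2, 6 and 12 weeks were -1.59 (SE 1.05), -1.74 (SE 0.92) and 1.79 (SE 0.99), and none was called. In the 21 iWAT libraries whose 12 skeletal muscle markers summed to at least 1000 CPM, Cox6a2 had 1.16, 3.34 and 26.1 CPM (lowest, median, highest), and in the 26 below that it had 0, 0.55 and 3.58 CPM. The libraries with the most muscle signal were 2 lean 6-week libraries at 37600 and 23200 CPM, with 26.1 and 22.6 CPM of Cox6a2, and a 12-week regression library at 25340 CPM, with 17.0 CPM. 2 obese libraries, with 1.32 and 3.58 CPM of Cox6a2, had muscle sums of 28.03 and 69.2 CPM, so that the isoform was not at 0 where muscle markers were low. With the muscle signal as a term in the fit, 31 members were lower in obese iWAT and 6 at 2 weeks, as without it. In that fit 1 member was called higher in obese iWAT and 1 at 2 weeks, against 0 each without the term.

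**Figure D5:**
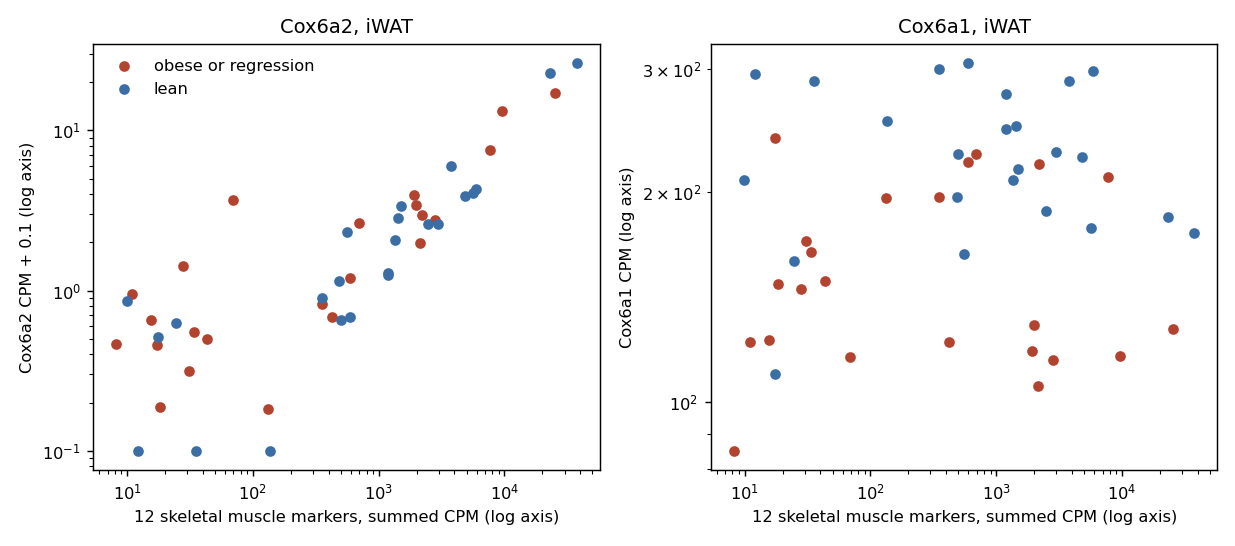
CPM of Cox6a2 and of Cox6a1 in each iWAT library (vertical axes) against the summed CPM of 12 skeletal muscle markers, all on log axes, with 0.1 added to Cox6a2. Cox6a2 is highest, at 17.0 to 26.1 CPM, in the 3 libraries with the most muscle signal, and Cox6a1 shows no such rise.

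Some subunits of the same machines, with cytochrome c and the ATP synthase inhibitor, have symbols outside the name pattern. Of 6 such genes, 4 were called lower in obese eWAT (66.7%, beside 9.31% of all genes), with a median log2 change of -0.67. In obese iWAT 4 were lower (66.7%, beside 15.5%) and 1 higher (16.7%, beside 14.7%), with a median of -0.84. Cyc1, the cytochrome c1 of complex III, fell by 0.59 in obese eWAT and by 0.93 in obese iWAT, and was still called lower in eWAT at 2 weeks (log2 change -0.67, adjusted p = 0.000497) and 12 weeks (log2 change -0.45, adjusted p = 0.0315). Ndufa4, now counted as a complex IV subunit, fell by 0.97 in obese eWAT and had a log2 change of -0.10 at 2 weeks (adjusted p = 0.774). Atpif1, the inhibitor of ATP synthase, went the other way: it was higher at 2 weeks in eWAT (log2 change 0.79, SE 0.21, adjusted p = 0.00273) and in obese iWAT (log2 change 0.47, SE 0.17, adjusted p = 0.0352). At 2 weeks the list had 2 lower (33.3%, beside 17.1% of all genes) and 1 higher (16.7%, beside 18.6%) in eWAT. In iWAT 1 was lower then (16.7%, beside 9.37%). At 6 weeks 0 were called in either depot, and at 12 weeks 1 was lower in eWAT (16.7%, beside 4.51%) and 0 in iWAT. The shares called higher are near those of all genes.

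Assembly factors insert cofactors and subunits into the 3 complexes. Of 33 tested, 9 were called lower in obese eWAT (27.3%, beside 9.31% of all genes), with a median of -0.25. At 2 weeks in eWAT 22 were lower (66.7%, beside 17.1%) and 1 higher (3.03%, beside 18.6%), with a median of -0.39. In iWAT 20 were lower in obesity (60.6%, beside 15.5% of all genes) and 14 at 2 weeks (42.4%, beside 9.37%). The iWAT medians were -0.42 and -0.38. Lyrm7, which helps to insert the Rieske protein Uqcrfs1 into complex III, had a log2 change of -0.47 in obese eWAT (adjusted p = 0.0673) and fell by 1.03 at 2 weeks (SE 0.19, adjusted p = 5.26e-05). In iWAT it fell by 1.23 in obesity and by 0.85 at 2 weeks. Coa5 and Tmem70, which serve complex IV and ATP synthase assembly, fell by 0.74 and 0.73 at 2 weeks in eWAT. At 6 weeks 1 assembly factor was lower in eWAT (3.03%, beside 2.02% of all genes). It was Cox17, the copper chaperone (log2 change -0.44, adjusted p = 0.0193). At 12 weeks 1 was lower and 1 higher (3.03% each, beside 4.51% and 10.8% of all genes). These shares at 6 and 12 weeks are near or below those of all genes. In iWAT 0 were called at either time.

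Complex II, which feeds electrons to complex III through ubiquinone, was measured beside them. Of its 7 subunit and assembly genes, 5 were called lower in obese eWAT (71.4%, beside 9.31% of all genes). The count at 2 weeks was also 5 (71.4%, beside 17.1%), and the eWAT medians were -0.41 and -0.57. In iWAT 6 were lower in obesity (85.7%, beside 15.5%) and 4 at 2 weeks (57.1%, beside 9.37%), with medians of -0.74 and -0.44. None of them was called at 6 or 12 weeks in either depot. Of all genes, 2.02% and 4.51% were lower at these times in eWAT, and 0.482% and 0.00719% in iWAT. Sdha, the flavoprotein, fell by 0.79 in obese eWAT and by 1.15 in obese iWAT.

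Among 19 regulators of mitochondrial gene expression, 3 were called lower and 1 higher in obese eWAT (15.8% and 5.26% of the list, beside 9.31% and 14.1% of all genes), and 7 lower and 1 higher in obese iWAT (36.8% and 5.26%, beside 15.5% and 14.7%). The coactivator genes Ppargc1a and Ppargc1b fell by 1.04 and 1.17 in obese eWAT and by 1.03 and 1.57 in obese iWAT. At 2 weeks, 8 were called lower and 4 higher in eWAT (42.1% and 21.1%, beside 17.1% and 18.6% of all genes), and 6 lower and 1 higher in iWAT (31.6% and 5.26%, beside 9.37% and 9.44%). The share called higher in eWAT is near that of all genes. Ppargc1b was still lower then, with log2 changes of -0.77 in eWAT (adjusted p = 0.00266) and -0.86 in iWAT (adjusted p = 0.00287). Esrra, an oestrogen-related receptor, had a log2 change of -0.03 in obese eWAT (adjusted p = 0.923) and fell by 0.59 at 2 weeks (adjusted p = 0.000926). Nrf1 was not called in any of the 8 comparisons. At 12 weeks in eWAT 2 were lower and 1 higher, with Ppargc1a at a log2 change of -0.79 (adjusted p = 0.00773), and 0 of the list were called at 6 weeks in either depot or at 12 weeks in iWAT.

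Several members share sequence with processed copies or overlap another gene, and how reads were counted, and whether by strand, is not stated. Stretches of 50 bases were taken from the shortest principal transcript of each gene in the annotation. Of these, 84.9% in Atp5l, 66.6% in Atp5h, 66% in Atp5g1 and 53% in Cox7c also occur in transcripts of other genes. The counts of these genes are less certain. For Uqcrfs1, Uqcrq, Cox8a, Atp5d, Atp5g3, Uqcrc1 and Uqcr10 the share is 0%. Exons of 12 of the 39 members (Uqcrb, Uqcrc2, Cox4i1, Cox5a, Cox6a2, Cox6c, Atp5a1, Atp5d, Atp5f1, Atp5j, Atp5l and Atp5o) overlap exons of a gene on the other strand in the annotation, and reads of both cannot be told apart if strand was not used.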

How the data were processed

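Poly(A) RNA of eWAT and iWAT from 47 mice was sequenced. Reads were aligned with STAR 2.4.1c to mm10, per the submitters' processing notes, which also name R 4.2.2 and DESeq2 1.38.3, while how reads were counted and whether by strand is not stated there. The authors deposited raw counts per gene symbol, 1 table per depot, and their own DESeq2 comparisons were not used.

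Counts were fitted with edgeR 4.0.16 in R 4.3.3 (glmQLFit and glmQLFTest, trimmed mean of M values, filterByExpr by group), 1 fit per depot over 47 libraries with the 8 groups as terms, and 1 fit over 94 libraries with the mouse as a block for differences between depots. An SE is the absolute log2 fold change divided by the square root of F. The scripts were tested on simulated data. Chi-square over degrees of freedom between 2 replicates of a group was at least 3.63 (eWAT) or 7.11 (iWAT), so every library was kept as its own sample. Replicates are different mice. Gene positions and transcripts are from GENCODE vM21 (GRCm38) and promoter windows from RefSeq.

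The members, gene lists and tests were chosen with earlier results of these data known. Named with values were, per comparison, the members of each complex with the largest and smallest changes, the isoform and core subunits, members called at 6 or 12 weeks where at most 5 were called, and up to 4 examples of each list. Cox6c, Atp5h, Atp5e, Uqcrq, Cox8a, Atp5k and Atp5l were also shown at times outside that rule, chosen after their values were seen. Sco2, Fmc1 and Mterf1 were not analysed here. Alternatives were DESeq2 1.42.0, its size factors, no count filter, the compared groups alone, leaving out each library, the replicate number as a block, the mouse number range as a term or alone, and the muscle signal as a term. Leaving out libraries with at least 100 CPM of duct markers (eWAT) or of T and B cell markers (iWAT) was added after seeing the data.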

Additional observations from a re-analysis of the deposited data

Results flagged for a closer look

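8 results were flagged because the effect of the diet on a gene differed between times or depots by a test of that difference, adjusted over all genes (edgeR). In eWAT the log2 change relative to lean controls was higher at 2 weeks of regression than in obesity for 3 genes, beside 2.09% of all genes. The differences were 0.87 for Cox6c, 0.97 for Atp5h and 1.17 for Atp5k. At 12 weeks it was higher than in obesity for Atp5k by 1.23, beside 0.726% of all genes. That call was lost without the filter on low counts and with the replicate number as a block. In iWAT it was higher at 2 weeks than in obesity for Atp5e by 0.94 and for Atp5k by 1.15, beside 1.89% of all genes. The mean log2 CPM of the 38 shared members there was 5.28 in 2-week regression and 5.21 in obese mice. In their lean controls it was 5.477 and 5.895. The 2-week median change of the iWAT members was 0.12 among replicates 1 to 3 and -0.59 among replicates 4 to 6. At 2 weeks the change in iWAT was higher than that in eWAT for Atp5c1 by 0.41 and for Atp5g3 by 0.56. These are 2 of 38 members, beside 6.58% of all genes, so their share is near that of all genes. The count was 1 with DESeq2 size factors and 1 without the filter on low counts. Atp5k is the gene that appears in both depots, at low levels of 1.73 to 10.2 CPM in the obese and lean eWAT libraries of the first time. No library stood apart in the mean level of the members in any of the 16 groups examined for it.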

How the results depend on the processing

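Over 37 counts of called members, 377 alternative values stayed within 1.5 times the reported count and 56 did not, and of 6545 values of single genes 0 changed direction with a call, 6158 kept their side of the threshold, 263 lost a call and 124 gained one. No setting moved the median of all genes by over 0.1. The cause of the moves was not tested. Fits on a single range of mouse numbers also hold fewer mice.

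With DESeq2 the lower calls in eWAT were 5 at 6 weeks (2 by edgeR) and 13 at 12 weeks (8), the higher calls 7 for obesity to 2 weeks (3) and 3 for obesity to 12 weeks (1), and 1 member was lower in iWAT than in eWAT in obesity (0). With DESeq2 size factors, or without a count filter, 1 member was higher in iWAT than in eWAT at 2 weeks (2). Without a filter the eWAT counts were 0 at 6 weeks, 4 at 12 weeks and 0 for obesity to 12 weeks. With the compared groups alone, eWAT had 0 higher at 2 weeks (1), 0 lower at 6 weeks and 1 at 12 weeks, and iWAT 2 lower at 2 weeks (6).

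Among replicates 1 to 3 the lower calls in eWAT were 19 in obesity (32), 6 at 2 weeks (13), 0 at 6 weeks and 1 at 12 weeks, with 0 higher at 2 weeks. In iWAT they were 0 lower and 1 higher at 2 weeks and 0 lower at 6 weeks (1). Among replicates 4 to 6 they were 13, 8, 0 and 0 in eWAT, and 11 in obesity (31), 17 at 2 weeks (6) and 0 at 6 weeks in iWAT. With the range as a term, 5 members were higher for obesity to 2 weeks in iWAT (2). With the muscle signal as a term, 1 member was higher in iWAT in obesity and 1 at 2 weeks (0 each). Without the libraries rich in lymphocyte markers 10 were lower in iWAT at 2 weeks.

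Leaving out each library in turn gave 24 to 32 lower calls in obesity, 9 to 15 at 2 weeks, 0 to 15 at 6 weeks and 0 to 16 at 12 weeks in eWAT, with 0 to 1 higher at 2 weeks, and 27 to 31, 2 to 9, 1 to 2 and 0 in iWAT, with 0 to 1 higher at 2 weeks.

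Correlations between same-numbered replicates ran from -0.60 to 0.63, and in no comparison were all over 0.1. In iWAT 3 of 6 were over 0.1 at each of 2, 6 and 12 weeks. With so few replicates these correlations cannot decide whether the numbers pair the mice. The replicate numbers also follow the ranges of mouse numbers. With the replicate number as a block the lower calls were 33, 15, 2 and 12 in eWAT and 32, 9, 1 and 0 in iWAT, over the 4 times in order, and the replicate block left 0 higher for obesity to 12 weeks in eWAT (1, Atp5k).

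Depth limits the members at a few CPM, such as Cox4i2, Cox6b2 and Cox6a2, most, and 5 or 6 mice per group limit all of them. It also limits the values of the eWAT library of 1.32 M, regression replicate 2 at 2 weeks. Without that library 13 members were called lower and 1 higher in eWAT at 2 weeks, as with it.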
